A study of Mus musculus with 18 samples.

Results

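The livers of mice that ate a high-fat diet and were given gut microbiota from untreated control mice (Con-FMT) were compared with the livers of control mice (Con). All 3 Con-FMT livers and all 3 Con livers of the series were used, 6 of its 18 livers, and the genes tested were the 10507 of 19057 lines of the expression table that reached an RPKM (mapped reads scaled to transcript length and to the size of the library) of at least 1 in at least 3 of the 18 livers. The mice were male, of the outbred ICR strain, and 10 weeks old by their labels. Con mice ate a regular diet and received saline. Con-FMT mice ate the high-fat diet from a young age and received, by mouth and for part of that time, a suspension pooled from the small intestine of mice that had been dosed with water. The other groups used here were HFD (the high-fat diet with saline), AOS (alginate oligosaccharide, 10 mg/kg by the labels, on the regular diet) and HFD+AOS (the same dose on the high-fat diet), with 3 livers each. A further group, A10-FMT, entered the choice of genes and the estimate of the spread only.

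Con-FMT and Con therefore differed in the diet and in the transplant, and the effects of these cannot be told apart in this comparison. The sources give no regular-diet group with a transplant. The source of the transplant was a pool, so each recipient liver is a separate mouse but the donor material is shared. Nothing in the labels says that the mice were housed or killed apart, so the p values measure the spread between these livers.

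A liver that receives much fat from the diet can burn it in mitochondria and peroxisomes, turn it into ketone bodies, store it in droplets or export it in lipoproteins. PPARalpha, a nuclear receptor that binds fatty acids, switches on many genes of the burning pathways, whereas SREBP factors and LXR drive the synthesis of fatty acids and the handling of cholesterol. Bile acids made from cholesterol carry it out of the liver and signal through the receptor FXR, and the liver also stores vitamin A and breaks down retinoic acid.

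In the deposited values the RPKM of the 6 livers summed to between 692303 and 806937, and between 14512 and 14827 lines were above 0. Read numbers were not given beside the RPKM, so library depth is unknown, as is how precisely a low value was measured. Con 3 stood apart from the others: of 148 genes that differed by at least 1 on the log2 scale between Con 1 and Con 2, 98% had a value in Con 3 that lay between them, and a mixture of Con 1 and Con 2 with the weights 0.54 and 0.46 gave its values to a median absolute log2 difference of 0.0665. AOS 3 lay between AOS 1 and AOS 2 in the same way (96.5% of 142 genes, 0.083), whereas this difference was 0.341 to 1.08 in each of the other livers. Main results are therefore given with and without Con 3. A fit without Con 1 still held Con 3, and these livers were not left out together. The hepatocyte markers were high in all 6 livers, with a sum of 90900 to 124400 RPKM over 24 genes. Of 35 markers of muscle, pancreas, gut and fat tissue or of blood, 11 were listed at 0 in all 6 livers, among them Ckm, Ins1, Prss1 and Plin1. Other members were not at 0, and 9 of the 35 were high enough to be tested. Cela1, a pancreas marker, was at 34.99 to 39.5 in the Con-FMT and 30.8 to 40.5 in the Con livers. Lgals4, a gut marker, was at 3.46 to 5.62 and 2.35 to 3.07. Carry-over of other tissues was not tested. Among the globin genes, Hba-a1 had an RPKM of 1854, 894 and 1471 in Con 1, 2 and 3, and of 1115 to 1561 in the Con-FMT livers. Hbb-b1 ran in the same order with 986, 278.5 and 699 and 336 to 561, whereas Hbb-bs ran in the reverse order among the Con livers with 0.85, 220.2 and 91.8 and was at 129.7 to 282 in the Con-FMT livers.

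Of the 10507 genes, 538 (5.12%) were called changed between Con-FMT and Con at an adjusted p under 0.05. In Con-FMT 395 (3.76%) stood higher and 143 (1.36%) lower. With the medians of the libraries set equal the count was 586, with 316 (3.01%) higher and 270 (2.57%) lower, so the share of higher genes among the calls depended on the scaling. Without Con 3 the count was 157 (1.49%), with 127 higher and 30 lower, and all 157 were among the 538. Without Con 3 and AOS 3 together it was 76, with 60 higher and 16 lower. The count was 141 without Con 1, 698 without Con 2, and 238, 235 and 352 without Con-FMT 1, 2 and 3, respectively. Under none of the 13 alternatives did any of the 538 genes change its sign. The median log2 difference over all genes tested was 0.05. The counts of list members below are to be read beside the 3.76% higher and 1.36% lower over all genes tested. Below, a difference is that of log2(RPKM + 1), Con-FMT minus Con, ± its standard error from limma. It is followed by the adjusted p and, for genes whose call was kept without each of the 6 livers in turn, by the adjusted p without Con 3 and the range of the adjusted p over the 13 alternatives. For the other genes, the livers without which the call was lost are named.

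**Figure D1:**
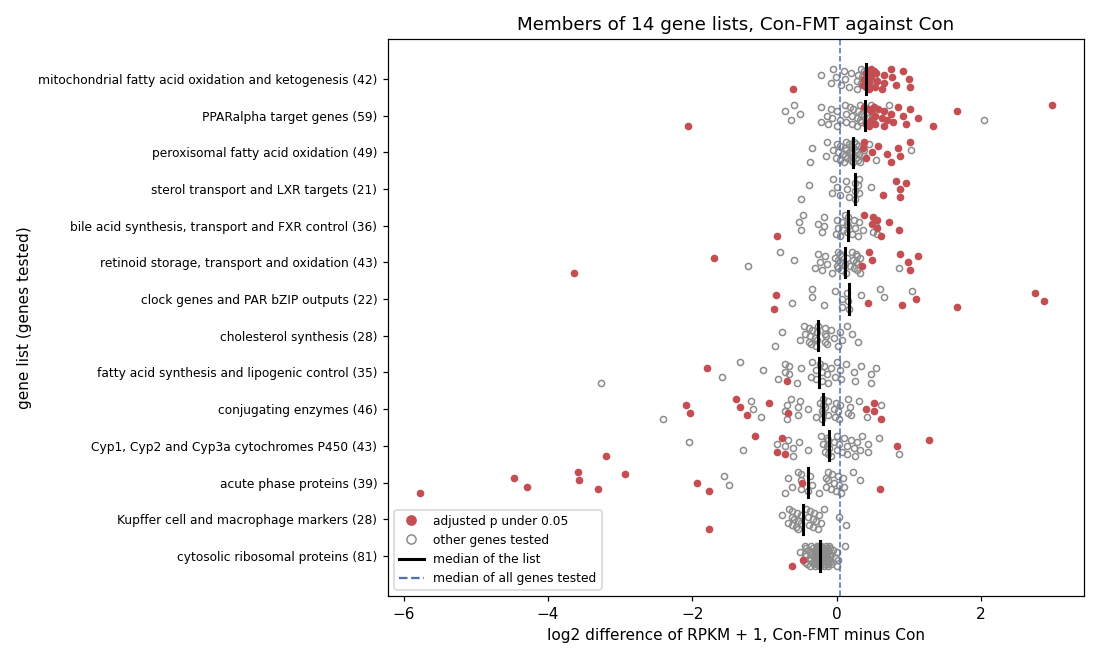
Log2 difference (Con-FMT minus Con, 3 livers each) of the members of 14 gene lists, in which each point is a gene tested, filled points passed an adjusted p of 0.05, black bars are list medians and the dashed line is the median of all genes tested (0.05). The medians of both fatty acid oxidation lists and of the PPARalpha targets lie right of the dashed line, at 0.41, 0.23 and 0.39, and those of the acute phase proteins and the macrophage markers lie left of it, at -0.40 and -0.46.

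Genes that burn fatty acids rose together in the Con-FMT livers. Of 42 genes of mitochondrial fatty acid oxidation and ketogenesis tested, 23 were called higher and 1 lower, with a median difference of 0.41 against 0.05 over all genes. Without Con 3, 14 were called higher and 0 lower (median 0.43), and without Con 1, 11 and 0 (median 0.31). Without Con 3 and AOS 3 together, 9 were called higher and 0 lower. The higher genes lay at many steps of the route. They included the entry of fatty acids into the mitochondrion (Cpt1a, Cpt2 and the carrier Slc25a20) and Slc22a5, which takes carnitine up into the cell. The dehydrogenases and later enzymes of the cycle were Acadvl, Acadl, Acads, Hadha, Hadhb, Hadh and Echs1. Eci1 and Decr1 help with unsaturated chains, and Etfa and Etfdh pass electrons to the respiratory chain. Acat1 and Bdh1, among others, make ketone bodies. The lower gene was Acsl4, which activates long polyunsaturated fatty acids (log2 difference -0.61 ± 0.16, adjusted p = 0.0332), and it lost its call without Con-FMT 1, Con-FMT 2, Con 1, Con 2 or Con 3 (adjusted p from 0.0724 to 0.119).

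Cpt1a, the gatekeeper that loads long-chain fatty acids for entry into mitochondria, had an RPKM of 85.7, 73.5 and 76.7 in Con-FMT 1, 2 and 3 and of 39.9, 42.9 and 40.5 in Con 1, 2 and 3. Every Con-FMT liver was above every Con liver, and the ratio of the means was 1.91 (log2 difference 0.92 ± 0.13, adjusted p = 0.00162, 0.0109 without Con 3, range 0.00135 to 0.0217). Hadhb, a subunit of the trifunctional enzyme that carries out the last steps of each turn of the cycle, was at 109, 109 and 119 in the Con-FMT and 58.7, 75.5 and 65.7 in the Con livers. Its groups were also apart, by a ratio of 1.68 (log2 difference 0.75 ± 0.08, adjusted p = 3.973e-04, 0.00475 without Con 3, range 5.043e-05 to 0.0193). Bdh1, which converts acetoacetate to beta-hydroxybutyrate, was at 114, 100.05 and 113 against 49.9, 71.9 and 62.8 (log2 difference 0.83 ± 0.10, adjusted p = 9.560e-04, 0.00654 without Con 3, range 1.117e-04 to 0.0274). These 3 genes remained called in all 13 alternatives.

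**Figure D2:**
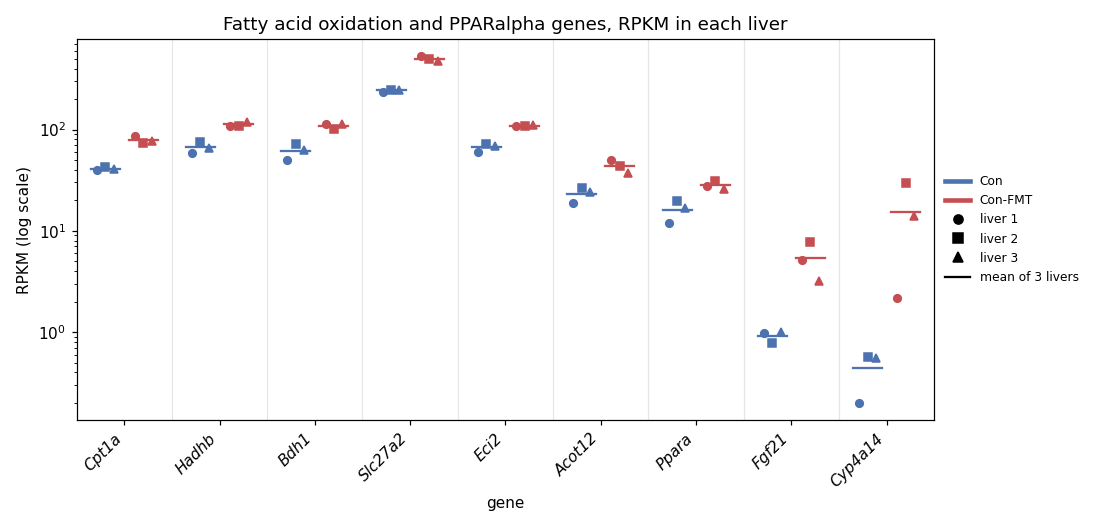
RPKM (log scale) of 9 genes of fatty acid oxidation and PPARalpha signalling in each of 3 Con and 3 Con-FMT livers, with a symbol for each liver and a bar at the mean of 3. The Con-FMT livers lie above the Con livers for each gene, closely grouped for Cpt1a (85.7, 73.5 and 76.7) and widely spread for Cyp4a14 (2.18, 29.6 and 13.9).

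Of 49 genes of peroxisomal fatty acid oxidation, 10 were called higher and 0 lower (median 0.23), and 4 of these calls were made without Con 3. Slc27a2, which takes up very long fatty acids and activates them, was at 529.7, 492 and 472 in the Con-FMT and 237, 248 and 248 in the Con livers. The livers within each group lay close to each other, and the ratio of the means was 2.04 (log2 difference 1.02 ± 0.11, adjusted p = 3.886e-04, 0.00415 without Con 3, range 2.798e-04 to 0.0116). Eci2, an isomerase for unsaturated chains, was at 109, 109 and 111 against 60.5, 71.7 and 68.7 (log2 difference 0.71 ± 0.09, adjusted p = 0.00123, 0.00787 without Con 3, range 8.261e-04 to 0.0159). Acot12, which releases acetate from acetyl-CoA, was at 49.7, 43.7 and 37.2 against 18.9, 26.7 and 24.1 (log2 difference 0.88 ± 0.12, adjusted p = 0.00166, 0.00929 without Con 3, range 6.678e-04 to 0.0274). In these genes too the groups did not overlap. Groups did not overlap in 29 of the 42 mitochondrial and 26 of the 49 peroxisomal genes, where 26.2% of all genes tested had groups that did not overlap.

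PPARalpha itself and many of its target genes were higher. Of 59 target genes, which include members of the oxidation lists, 24 were called higher and 1 lower (median 0.39). Without Con 3, 14 were called higher and 0 lower, and without Con 3 and AOS 3 together, 10 and 0. Ppara, the receptor gene, was at 27.6, 30.9 and 26.1 in the Con-FMT livers and 12.01, 19.5 and 16.97 in the Con livers. Its lowest Con-FMT value was above its highest Con value (log2 difference 0.79 ± 0.14, adjusted p = 0.00712, 0.0242 without Con 3, range 0.00221 to 0.0513). Ppard, the receptor PPARdelta, went the other way, with 5.97, 5.17 and 2.95 against 15.97, 18.1 and 18.7 and no overlap (log2 difference -1.74 ± 0.25, adjusted p = 0.00189, 0.0145 without Con 3, range 0.00201 to 0.028). Pparg, the receptor that drives fat storage, was at 3.06, 1.38 and 3.62 against 2.67, 4.44 and 3.16. Its groups overlapped, and it was not called (log2 difference -0.30 ± 0.21, adjusted p = 0.433). Fabp2, a fatty acid binding protein, was at 113, 77.99 and 87.5 in the Con-FMT and 36.6, 57.4 and 48.4 in the Con livers (log2 difference 0.96 ± 0.17, adjusted p = 0.00579, 0.0258 without Con 3, range 0.00272 to 0.0445).

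Some PPARalpha target genes were uneven among the Con-FMT livers. Cyp4a14, which hydroxylates the end of fatty acids, had the largest difference of all called genes that were higher, but its RPKM was 2.18, 29.6 and 13.9 in the Con-FMT livers and 0.2, 0.57 and 0.55 in the Con livers (log2 difference 2.99 ± 0.77, adjusted p = 0.036). All Con-FMT livers were above all Con livers, Con-FMT 1 by the least, and the call was lost without Con-FMT 2, Con-FMT 3, Con 1, Con 2 or Con 3 (adjusted p from 0.0541 to 0.153). Cyp4a10, a close relative, had 4.57, 45.1 and 7.78 against 1.29, 2.76 and 2.77 and was not called (log2 difference 2.04 ± 0.70, adjusted p = 0.102). It was high in Con-FMT 2, as Cyp4a14 was. The lower target was Cyp4a12b, another fatty acid hydroxylase, with 1.24, 0.66 and 5.54 against 12.4, 9.73 and 11.3. It was lower in each Con-FMT liver (log2 difference -2.06 ± 0.48, adjusted p = 0.022), and the call was lost without Con-FMT 1, Con-FMT 2, Con 1 or Con 3 (adjusted p from 0.0785 to 0.101). These Cyp4a genes are near copies, and reads shared between them could have been split by the mapping.

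Fgf21, a hormone that the liver releases in fasting and under PPARalpha, was at 5.11, 7.82 and 3.22 in the Con-FMT livers and 0.98, 0.78 and 1 in the Con livers. It was above the Con range in each Con-FMT liver, with a ratio of means of 5.85 (log2 difference 1.67 ± 0.25, adjusted p = 0.0023, 0.0145 without Con 3, range 0.00142 to 0.0273). Cck, which encodes the gut hormone cholecystokinin, was at 17.5, 26.4 and 25.2 against 1.35, 3.39 and 2.16. The ratio was 10 without overlap (log2 difference 2.89 ± 0.37, adjusted p = 0.0011, 0.00787 without Con 3, range 6.678e-04 to 0.0128). Apoa4, an apolipoprotein of triglyceride-rich particles, was at 940.3, 752 and 352 in the Con-FMT livers and 218, 183 and 214 in the Con livers. Con-FMT 3 was the lowest of its group and still above each Con liver (log2 difference 1.62 ± 0.32, adjusted p = 0.0101, 0.038 without Con 3, range 0.00219 to 0.0619). Among 29 hepatokines, the proteins by which the liver signals to other organs, 7 (24.1%) were called higher and 0 lower. They were Fgf21, Ahsg, Selenop, Inhbc, Rbp4, Hamp2 and Angptl4, and 1 of them was called without Con 3 and 1 without Con 1.

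Few genes of fat synthesis were called, all of them lower. Few genes of fat storage and breakdown were called, all of them higher, and enzymes that split lipids were among them. Of 35 genes of fatty acid synthesis and its control, 0 were called higher and 2 lower (5.71%, median -0.24). Neither of these calls was made without Con 3 or without Con 1. Of all genes tested, 1.36% were called lower. With the library medians set equal, 4 of the 35 were called lower. Of the 35, 25 lay below 0. Groups did not overlap in 16 of them, against 26.2% of all genes tested. By limma 15 of the 35 had an unadjusted p under 0.05, as had 2198 of the 10507 genes. Acacb, the acetyl-CoA carboxylase whose product blocks Cpt1a, was at 4.03, 2.27 and 2.98 in the Con-FMT and 9.94, 16.8 and 13.1 in the Con livers. All its Con-FMT values were below the Con values (log2 difference -1.80 ± 0.45, adjusted p = 0.0305), but the call was lost without Con-FMT 1, Con-FMT 2, Con-FMT 3, Con 1, Con 2 or Con 3 (adjusted p from 0.0593 to 0.107). Pgd, an enzyme that supplies NADPH, was at 12.2, 10.03 and 14.8 against 17.7, 22.8 and 20.3 (log2 difference -0.68 ± 0.18, adjusted p = 0.0361), and its call was lost without Con-FMT 1, Con-FMT 2, Con 1, Con 2 or Con 3 (adjusted p from 0.0706 to 0.147). Scd1, the desaturase that makes oleate, was at 163, 26.7 and 99.2 against 676, 815 and 740.04 and was not called (log2 difference -3.27 ± 0.94, adjusted p = 0.0557). Its Con livers were close together and its Con-FMT livers spread from 26.7 to 163, all below them. Fasn, fatty acid synthase, was at 29.7, 28.4 and 35.3 against 40.5, 72.1 and 57.1 and was not called either (log2 difference -0.81 ± 0.42, adjusted p = 0.289). Srebf1, the gene of the factor that controls both, was at 65.98, 60.7 and 53.4 against 29.9, 58.2 and 44.4, and the groups overlapped (log2 difference 0.48 ± 0.20, adjusted p = 0.186). Of 37 genes of triglyceride assembly, lipid droplets and lipolysis, 4 were called higher and 0 lower, against 2 higher without Con 3 and 1 without Con 1. The 4 are 10.8% of the list, where 3.76% of all genes tested were called higher. The median of the list was 0.05, as over all genes tested. Agpat3, which adds a fatty acid to lysophosphatidic acid, was at 63.1, 68.1 and 61.9 against 44.4, 48.1 and 47.9 (log2 difference 0.45 ± 0.08, adjusted p = 0.00564, 0.0242 without Con 3, range 0.00335 to 0.0441). The calls of Hsd17b11, a droplet-bound dehydrogenase (log2 difference 0.66 ± 0.14, adjusted p = 0.0131), of Mgll, which splits monoglycerides (log2 difference 0.47 ± 0.11, adjusted p = 0.0268), and of Lipc, hepatic lipase (log2 difference 0.44 ± 0.11, adjusted p = 0.0361), were lost without Con-FMT 1, Con-FMT 2 or Con 1 (adjusted p from 0.0528 to 0.0694), without Con-FMT 1, Con-FMT 2, Con 1 or Con 3 (adjusted p from 0.0739 to 0.122) and without Con-FMT 1, Con-FMT 2, Con-FMT 3, Con 1 or Con 3 (adjusted p from 0.0592 to 0.163), respectively. Plin5, a droplet protein, was at 12.6, 19.1 and 14.7 against 14.5, 16.9 and 16.6 and was not called (log2 difference -0.06 ± 0.18, adjusted p = 0.877). Cd36, a fatty acid receptor, was at 3.15, 3.01 and 2.91 against 2.45, 2.22 and 1.85, above the Con range but not called (log2 difference 0.35 ± 0.18, adjusted p = 0.294).

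Sterol exporters rose, while no gene of cholesterol synthesis was called. Of 21 genes of sterol transport and LXR targets, 5 were called higher and 0 lower (median 0.26), and 3 of the calls were made without Con 3. Abcg5 and Abcg8 encode the parts of the pump that moves cholesterol into bile. Abcg5 was at 40.2, 27.5 and 31.1 in the Con-FMT and 17.7, 14.7 and 16.6 in the Con livers (log2 difference 0.96 ± 0.13, adjusted p = 0.00166, 0.0109 without Con 3, range 0.0011 to 0.0217). Abcg8 was at 27.2, 17.2 and 20.5 against 11.2, 11.3 and 10.9 (log2 difference 0.88 ± 0.14, adjusted p = 0.00367, 0.0213 without Con 3, range 0.00248 to 0.0389). Neither gene overlapped between the groups, and both were highest in Con-FMT 1. Npc1, which lets cholesterol out of lysosomes, was at 29.1, 28.1 and 25.9 against 12.5, 17.96 and 15.4 (log2 difference 0.83 ± 0.09, adjusted p = 3.973e-04, 0.00475 without Con 3, range 3.681e-05 to 0.0214). The other members called were Scarb1, the HDL receptor (log2 difference 0.87 ± 0.21, adjusted p = 0.0273), whose call was lost without Con-FMT 1, Con-FMT 2, Con 1 or Con 3 (adjusted p from 0.0789 to 0.12), and Soat2, which esterifies cholesterol (log2 difference 0.64 ± 0.17, adjusted p = 0.0383), whose call was lost without Con-FMT 1, Con-FMT 2, Con-FMT 3, Con 1 or Con 3 (adjusted p from 0.0665 to 0.163). Of 28 genes of cholesterol synthesis, 0 were called by limma and 1 had an unadjusted p under 0.05, and 22 of the 28 lay below 0 (median -0.26). Sqle, squalene epoxidase, was at 30.6, 30.3 and 38.4 against 37.8, 47.6 and 44.5, with overlap (log2 difference -0.38 ± 0.39, adjusted p = 0.624). Srebf2, the factor that drives this pathway, was at 12.9, 14.7 and 12.3 against 12.5, 14.2 and 14.2 (log2 difference -0.03 ± 0.14, adjusted p = 0.926).

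Several transporters of bile and bile acids rose. Of 36 genes of bile acid synthesis, transport and FXR control, 8 were called higher and 1 lower, against 5 and 0 without Con 3. Abcb4, which flips phospholipid into bile, was at 61.1, 74.5 and 56.5 in the Con-FMT and 36, 32.97 and 34.7 in the Con livers (log2 difference 0.86 ± 0.14, adjusted p = 0.00432, 0.0233 without Con 3, range 0.00345 to 0.0407). Abcc2, which pumps conjugated compounds into bile, was at 43.3, 42.5 and 36.2 against 20.01, 28.8 and 24.04 (log2 difference 0.73 ± 0.11, adjusted p = 0.00189, 0.0145 without Con 3, range 2.639e-04 to 0.0401). Slco1b2, which takes bile acids and drugs up from blood, was at 284, 257 and 263 against 193, 192 and 188 (log2 difference 0.49 ± 0.08, adjusted p = 0.00556, 0.0347 without Con 3, range 0.0053 to 0.0535). In each of these transporters all Con-FMT livers were above all Con livers. Cyp7a1, the rate-limiting enzyme of bile acid synthesis, was at 18.7, 19.7 and 18.9 against 30.7, 24.3 and 27.5. It was below the Con range in each Con-FMT liver but was not called (log2 difference -0.50 ± 0.56, adjusted p = 0.654, range 0.0482 to 0.813). Cyp7a1 passed in 1 of the 13 alternatives. Its standard error rests on all 6 groups, and the HFD livers were at 8.63, 20.3 and 66.7. Cyp8b1, which sets the share of cholic acid, was at 270.2, 331 and 255 against 168, 231 and 206 and was not called (log2 difference 0.50 ± 0.17, adjusted p = 0.107). Nr1h4, the gene of FXR, was at 56.6, 64.3 and 60.7 against 54.4, 65.5 and 58.6, with overlap (log2 difference 0.03 ± 0.10, adjusted p = 0.917). The lower gene was Cyp2c70, which makes muricholic acids (log2 difference -0.83 ± 0.20, adjusted p = 0.0242), and its call was lost without Con-FMT 1, Con-FMT 3, Con 1 or Con 3 (adjusted p from 0.0788 to 0.0971).

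Genes of vitamin A handling moved in both directions. Of 43 genes of retinoid storage, transport and oxidation, 7 were called higher and 2 lower (median 0.12), and 2 and 2 without Con 3. Cyp26a1, the enzyme that breaks down retinoic acid and that retinoic acid itself induces, had an RPKM of 2.67, 1.7 and 1.45 in the Con-FMT livers and 34.97, 32.1 and 38.4 in the Con livers. The Con livers lay close together, none of the groups' values overlapped, and the Con mean was 18.1 times the Con-FMT mean (log2 difference -3.64 ± 0.46, adjusted p = 0.00108, 0.00787 without Con 3, range 6.456e-05 to 0.0155). Retsat, which saturates retinol and is a PPAR target, was at 184, 249 and 191 against 69.01, 121 and 98.5 (log2 difference 1.13 ± 0.19, adjusted p = 0.00432, 0.0206 without Con 3, range 0.00169 to 0.0373). Dhrs4, a retinol and retinal oxidoreductase of peroxisomes, was at 99.9, 101 and 113 against 66.2, 81.9 and 75.4 (log2 difference 0.49 ± 0.09, adjusted p = 0.00556, 0.0258 without Con 3, range 0.00266 to 0.0613). Aldh1a7, a relative of the retinal dehydrogenases, was the other lower gene, with 20.1, 17.9 and 24.8 against 74.1, 62.6 and 73.1 (log2 difference -1.70 ± 0.31, adjusted p = 0.00726, 0.0367 without Con 3, range 0.00165 to 0.058). Rbp4, which carries retinol in blood, was at 3327, 3669 and 3202 against 2192, 2782 and 2542 (log2 difference 0.44 ± 0.11, adjusted p = 0.0265), and its call was lost without Con-FMT 1, Con-FMT 2, Con 1 or Con 3 (adjusted p from 0.0651 to 0.12). Dhrs9, a retinol dehydrogenase, was too low to be tested, with an RPKM of 0.02, 0.07 and 0.07 in the Con-FMT and 0.13, 0.16 and 0.11 in the Con livers.

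The 250 bases before the start of Cyp26a1 (RefSeq, GRCm38.p6, chr19:37697558-37697807, plus strand) are shown because they hold a pair of direct repeats of the kind that retinoic acid receptors bind. The letters searched were AGTTCA and, after any 5 bases, AGTTCA again, on either strand, and they occurred in 7 of 32851 promoter stretches of 250 bases (0.0213%). Other spellings of this repeat were not searched, so the share holds for these letters only. The match is in capitals and lies 32 to 16 bases before the start.
Cyp26a1: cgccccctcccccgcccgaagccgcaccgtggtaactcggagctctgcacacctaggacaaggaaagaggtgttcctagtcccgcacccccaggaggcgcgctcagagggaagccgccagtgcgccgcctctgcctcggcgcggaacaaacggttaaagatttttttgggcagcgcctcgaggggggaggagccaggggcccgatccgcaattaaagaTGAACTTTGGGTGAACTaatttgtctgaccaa
A match of letters is a description of this stretch, and binding was not measured. The PPAR element was searched in the same way (AGGNCA and, after any 1 base, AGGNCA again, in 111 promoter stretches or 0.338%). It was found for 0 of 19 higher PPARalpha target genes and 0 of 26 higher oxidation genes that had an entry. These counts are of genes and the share is of stretches. They say only that these letters are not in these windows.

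Enzymes that clear drugs and hormones were called in both directions. Of 43 cytochromes P450 of the Cyp1, Cyp2 and Cyp3a families, 2 were called higher (Cyp2e1 and Cyp2c37) and 5 lower (Cyp3a11, Cyp1a2, Cyp2c29, Cyp2c55 and Cyp2c70), and without Con 3 1 and 3. Cyp3a11, a major drug- and bile acid-metabolising enzyme, was at 313, 262 and 143 in the Con-FMT and 1709.6, 2585 and 2082 in the Con livers. The Con mean was 8.88 times the Con-FMT mean, without overlap (log2 difference -3.20 ± 0.53, adjusted p = 0.0041, 0.0216 without Con 3, range 0.00275 to 0.0389). Cyp1a2, which oxidises caffeine and is a target of the aryl hydrocarbon receptor, was at 258, 208 and 253 against 376, 428 and 407 (log2 difference -0.75 ± 0.10, adjusted p = 0.00154, 0.0109 without Con 3, range 0.00111 to 0.0233). Cyp2e1, which oxidises ethanol, ketones and fatty acids, was higher, at 4325, 3672 and 3634 against 1755, 2572 and 2221 (log2 difference 0.84 ± 0.14, adjusted p = 0.00392, 0.0206 without Con 3, range 0.00148 to 0.0503). Of 46 conjugating enzymes, 4 were called higher and 7 lower, and without Con 3 3 and 2. Gstm3, a glutathione transferase, was at 19.7, 16.2 and 32.6 against 103, 83.2 and 93.1 (log2 difference -2.04 ± 0.39, adjusted p = 0.0089, 0.038 without Con 3, range 0.00654 to 0.062). Ugt2b1, which adds glucuronic acid to steroids, was at 191, 176 and 218 against 326, 298 and 312 (log2 difference -0.68 ± 0.12, adjusted p = 0.00575, 0.0321 without Con 3, range 0.0051 to 0.0448). Most of these enzymes belong to families of similar sequences, so their single values are uncertain where reads could map to more than 1 member.

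Part of the acute phase genes were lower in the Con-FMT than in the Con livers. The Con livers differed widely among themselves in these genes. The AOS livers, also on the regular diet, were at 278, 61.1 and 131 for Saa1 and 110.2, 23.7 and 53.95 for Saa2. They were at 12.1, 8.19 and 10.5 for Saa3 and 33.1, 11.6 and 19.6 for Orm2. In each of these genes every AOS liver was below every Con liver. Of 39 acute phase genes, 1 was called higher (Il6ra, a receptor of the signal that induces them) and 10 lower (median -0.40). Without Con 3 these counts were 0 and 3, and without Con 1 they were 0 and 3 (median -0.22). Saa2, a serum amyloid that rises in inflammation, had an RPKM of 33.3, 44.04 and 30.7 in the Con-FMT livers and of 7018, 300.04 and 3826 in Con 1, 2 and 3. The Con-FMT livers were low and alike, and Con 1 was far above Con 2, with Con 3 between them (log2 difference -5.78 ± 0.84, adjusted p = 0.00189, 0.0166 without Con 3, range 1.013e-05 to 0.0303). Saa1 followed the same order with 93.9, 145 and 64.8 against 6422, 296 and 3569.8 (log2 difference -4.29 ± 0.84, adjusted p = 0.0101), but its call was lost without Con 1 or Con 3 (adjusted p from 0.0542 to 0.0585). Saa3 had 12.7, 8.75 and 11.3 against 344, 22.6 and 195 (log2 difference -3.31 ± 0.62, adjusted p = 0.00775, 0.0472 without Con 3, range 1.357e-07 to 0.083). The glycoprotein Orm1 had 597, 375 and 599.9 against 3249.8, 1037 and 2219.7 (log2 difference -1.93 ± 0.33, adjusted p = 0.00514, 0.0321 without Con 3, range 2.439e-04 to 0.0513). Lcn2, an iron-siderophore trap of hepatocytes and neutrophils, had 12.3, 18.7 and 9.94 against 1043, 47.5 and 612 (log2 difference -4.47 ± 0.90, adjusted p = 0.0114), and its call was lost without Con 1 or Con 3 (adjusted p from 0.0587 to 0.0694). For the metal-binding protein Mt1 the groups overlapped, with 29.8, 72.2 and 20.4 against 736, 58.1 and 493 (log2 difference -2.94 ± 0.79, adjusted p = 0.043), and the call was lost without Con-FMT 1, Con-FMT 2, Con-FMT 3, Con 1 or Con 3 (adjusted p from 0.0529 to 0.199). Orm2, a relative of Orm1, followed the order of Saa1 among the Con livers with 28.7, 21.1 and 11.3 against 762, 39.8 and 441 (log2 difference -3.58 ± 0.80, adjusted p = 0.0182), and its call was lost without Con-FMT 2, Con-FMT 3, Con 1 or Con 3 (adjusted p from 0.0547 to 0.103). Saa1 and Saa2 share long stretches, so their split of reads is uncertain.

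Summed levels of some markers of other cells followed the same order among the Con livers. The 16 neutrophil markers in the table summed to 1057 in Con 1, 53.6 in Con 2 and 623 in Con 3 and to 15.3 to 24.8 in the Con-FMT livers, mostly through Lcn2, and of the 4 that were tested 1 was called lower, which was Lcn2, a member of the acute phase list too. Hba-a1 and Hbb-b1, given above, also had this order. The 35 macrophage markers summed to 472, 309 and 409.5 in the Con livers and to 267 to 310.2 in the Con-FMT livers. Of 28 tested, 0 were called higher and 1 lower, and 26 of 28 lay below 0 (median -0.46). The member called was Cd14, which is also on the acute phase list, at 1.21, 2.24 and 1.21 against 17.4, 1.95 and 10.4. Con 2 lay within the Con-FMT range, and the call was lost without Con-FMT 1, Con-FMT 2, Con-FMT 3, Con 1 or Con 3 (adjusted p from 0.0541 to 0.143). The part of these cells in the acute phase result was not tested, and in whole liver fewer cells of a type and less RNA per cell cannot be told apart. The hepatocyte markers summed to 118900 to 124400 in the Con-FMT livers and to 90900, 117200 and 103000 in Con 1, 2 and 3, which is the reverse order of the acute phase genes among the Con livers. Of 51 interferon-stimulated genes 0 were called by limma, with 2 at an unadjusted p under 0.05, and of 11 genes of antigen presentation by MHC class II 0 were called, with 2 at an unadjusted p under 0.05.

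**Figure D3:**
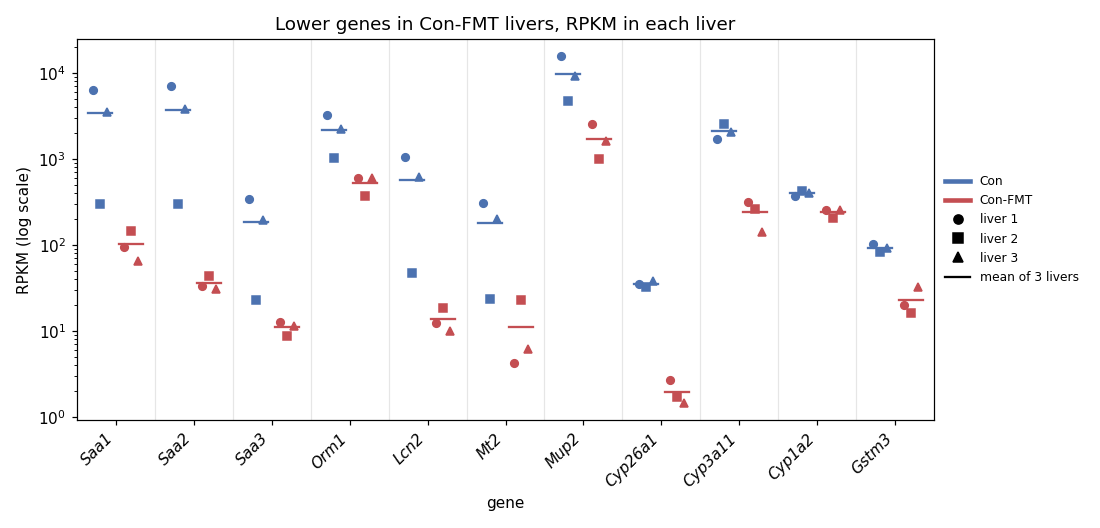
RPKM (log scale) of 11 genes that were lower in Con-FMT, in each of 3 Con and 3 Con-FMT livers, with a symbol for each liver and a bar at the mean of 3. For Saa1, Saa2, Saa3, Orm1, Lcn2, Mt2 and Mup2 the circle of Con 1 lies far above the square of Con 2 (7018, 300.04 and 3826 for Saa2 in Con 1, 2 and 3), whereas the Con livers are close together for Cyp26a1 (34.97, 32.1 and 38.4).

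The promoters of Saa1 and Saa2 are shown because both genes had large differences and both hold a C/EBP-like motif (TTGCNCAA, either strand). This motif was found for 4 of 8 lower acute phase genes that had an entry (Lcn2, Orm2, Saa1 and Saa2) and in 857 of 32851 promoter stretches (2.61%). The former count is of genes and the latter of stretches, so the shares are not in the same unit. The stretches are the 250 bases before the start, chr7:46742981-46743230 on the minus strand for Saa1 and chr7:46751583-46751832 on the plus strand for Saa2 (RefSeq, GRCm38.p6). The motif is in capitals, 182 to 175 bases before the start of Saa1 and 183 to 176 before that of Saa2.
Saa1: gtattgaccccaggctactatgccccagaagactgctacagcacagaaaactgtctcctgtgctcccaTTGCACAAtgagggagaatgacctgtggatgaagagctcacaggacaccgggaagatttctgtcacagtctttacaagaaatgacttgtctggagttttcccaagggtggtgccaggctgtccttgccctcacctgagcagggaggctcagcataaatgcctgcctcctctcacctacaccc
Saa2: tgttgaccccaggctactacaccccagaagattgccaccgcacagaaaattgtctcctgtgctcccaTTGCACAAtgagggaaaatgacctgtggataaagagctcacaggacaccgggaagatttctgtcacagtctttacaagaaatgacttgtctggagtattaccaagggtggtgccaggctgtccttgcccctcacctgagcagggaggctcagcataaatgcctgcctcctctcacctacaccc
No binding was measured at these letters. The stretches are alike over most of their length, as the genes are.

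Genes of the secretory pathway held a few calls, and most of these were lost when any of several livers was left out. Of 38 genes of endoplasmic reticulum stress and secretory chaperones, 4 were called higher (Herpud1, Ddit3, Dnajb9 and Creb3l3) and 1 lower (Asns), which is 13.2% of the list, and without Con 3 these counts were 1 and 0. Herpud1, which helps to remove misfolded proteins, was at 122, 178 and 176 in the Con-FMT and 68.8, 79.5 and 74.97 in the Con livers. The groups were apart by a ratio of 2.13 (log2 difference 1.06 ± 0.16, adjusted p = 0.00261, 0.0164 without Con 3, range 0.00218 to 0.028). Ddit3, which encodes the stress factor CHOP, was at 9.08, 15.8 and 8.21 against 5.32, 5.33 and 6.48 (log2 difference 0.80 ± 0.21, adjusted p = 0.0386), and its call was lost without Con-FMT 1, Con-FMT 2, Con 1, Con 2 or Con 3 (adjusted p from 0.0592 to 0.153). Asns, a target of the amino acid response, was at 0.37, 0.31 and 0.3 against 2.65, 0.79 and 2.37 and so differed in direction from Ddit3 (log2 difference -1.08 ± 0.27, adjusted p = 0.0289), with the call lost without Con-FMT 1, Con-FMT 2, Con-FMT 3, Con 1 or Con 3 (adjusted p from 0.0711 to 0.145). The calls of Dnajb9, a chaperone (log2 difference 0.84 ± 0.22, adjusted p = 0.04), and of Creb3l3, a factor of lipid and iron genes (log2 difference 0.45 ± 0.12, adjusted p = 0.0416), were lost without Con-FMT 2, Con-FMT 3, Con 1, Con 2 or Con 3 (adjusted p from 0.0667 to 0.158) and without Con-FMT 1, Con-FMT 2, Con-FMT 3, Con 1 or Con 3 (adjusted p from 0.0559 to 0.18), respectively.

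The 250 bases before the start of Herpud1 (RefSeq, GRCm38.p6, chr8:94386179-94386428, plus strand) hold the letters of an endoplasmic reticulum stress element (ATTGG, any 1 base and CCACG, either strand, in 10 of 32851 promoters or 0.0304%). They are in capitals, 52 to 42 bases before the start, and among the 5 called genes of the list this was the promoter that held them.
Herpud1: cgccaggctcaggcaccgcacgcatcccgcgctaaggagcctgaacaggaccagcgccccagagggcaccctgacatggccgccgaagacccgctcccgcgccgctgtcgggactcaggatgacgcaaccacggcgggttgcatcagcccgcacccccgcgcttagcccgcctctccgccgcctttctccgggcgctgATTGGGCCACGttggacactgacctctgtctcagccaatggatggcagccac

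In sugar and amino acid metabolism, 5 of 48 genes of glucose and glycogen (10.4%) were called higher and 0 lower, and 1 was called without Con 3. Ugp2, Ldha, Pck1 and Slc2a9 were among the 5. Over all genes tested, 3.76% were called higher and 1.36% lower. Ugp2, which makes UDP-glucose for glycogen, was at 114, 99.9 and 87.6 in the Con-FMT and 56.1, 72.7 and 62.4 in the Con livers (log2 difference 0.65 ± 0.10, adjusted p = 0.00367, 0.0216 without Con 3, range 0.00143 to 0.0508). Pck1, the rate-limiting enzyme of gluconeogenesis, was at 585, 655 and 639 against 287, 342 and 302, without overlap (log2 difference 1.01 ± 0.23, adjusted p = 0.0208), and its call was lost without Con-FMT 1, Con-FMT 2, Con-FMT 3, Con 1 or Con 3 (adjusted p from 0.0519 to 0.0927). Of 72 genes of amino acid breakdown and the urea cycle, 6 (8.33%) were called higher and 1 (1.39%) lower, and without Con 3 1 and 0. Of 29 genes of the methionine cycle, 1 (3.45%) was called higher and 2 (6.9%) lower, and without Con 3 0 and 1. Ahcyl2, a homologue of the enzyme that removes S-adenosylhomocysteine, was at 2.86, 3.23 and 3.12 against 6.75, 4.63 and 5.99 (log2 difference -0.73 ± 0.11, adjusted p = 0.00189, 0.0164 without Con 3, range 2.439e-04 to 0.028).

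Among genes that differ between male and female livers, 3 of 42 male-biased genes were called higher and 6 lower (median -0.39), and without Con 3 1 and 1. Nox4, an oxidase that makes hydrogen peroxide, was the higher gene with the smallest p, at 18.8, 17.6 and 19.1 against 5.07, 8.48 and 6.78 (log2 difference 1.35 ± 0.16, adjusted p = 9.307e-04, 0.00654 without Con 3, range 2.371e-04 to 0.0128). Mup2, a major urinary protein, was at 2554, 1002 and 1614 in the Con-FMT and 15763, 4696 and 9209 in the Con livers, with Con 1 far above Con 2. Its groups did not overlap (log2 difference -2.45 ± 0.51, adjusted p = 0.0131), but the call was lost without Con-FMT 2, Con 1 or Con 3 (adjusted p from 0.0536 to 0.0755), and the Mup genes are near-identical copies whose reads cannot be told apart well. Of 82 subunits of the respiratory chain and ATP synthase, 3 (3.66%) were called higher and 2 (2.44%) lower (median -0.04), and without Con 3 0 and 0. Over all genes tested, 3.76% were called higher and 1.36% lower. Of 81 cytosolic ribosomal proteins, 2 (2.47%) were called lower (Rpl38 and Rpl35, median -0.23), and with the library medians set equal 15 were called lower. Without Con 3, 0 were called lower.

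Some of the largest changes or smallest p values were in genes not yet described with their values. Adam11, a membrane protein best known from nerve cells, was at 2.56, 2.06 and 1.87 in the Con-FMT and 11.3, 8.94 and 10.6 in the Con livers. Its Con mean was 4.75 times the Con-FMT mean (log2 difference -1.83 ± 0.19, adjusted p = 3.886e-04, 0.00415 without Con 3, range 2.260e-04 to 0.0116). Ociad2, a mitochondrial membrane protein, was at 15.3, 12.7 and 15.1 against 7.48, 8.58 and 8.72 (log2 difference 0.73 ± 0.10, adjusted p = 0.00154, 0.00787 without Con 3, range 0.00135 to 0.0159). Both genes were apart between the groups and remained called in all 13 alternatives. Mfsd2a, a transporter of lysophospholipids, was at 14.3, 8.41 and 19.8 against 0.89, 2.36 and 1.28, above the Con range in each Con-FMT liver (log2 difference 2.56 ± 0.65, adjusted p = 0.0322), and its call was lost without Con-FMT 1, Con-FMT 2, Con-FMT 3, Con 1 or Con 3 (adjusted p from 0.0545 to 0.132). Hamp2, a relative of the iron hormone hepcidin, was at 51.8, 16.3 and 9.22 against 6.5, 2.96 and 4.32. Con-FMT 1 was far above the other livers (log2 difference 1.96 ± 0.52, adjusted p = 0.04), and the call was lost without Con-FMT 1, Con-FMT 2, Con 1, Con 2 or Con 3 (adjusted p from 0.0774 to 0.143). Cd99, a surface protein, was listed at 0, 0 and 0.87 in the Con livers and at 3.93, 2.91 and 2.71 in the Con-FMT livers (log2 difference 1.75 ± 0.38, adjusted p = 0.016), and its call was kept without Con 3 but lost without Con-FMT 1 or Con 1 (adjusted p from 0.0633 to 0.0836).

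Clock genes differed between the groups, with the Con-FMT livers spread. Of 22 clock genes and the factors that they drive, 6 (27.3%) were called higher (Dbp, Nr1d1, Nr1d2, Tef, Per3 and Hlf). In the same list 2 (9.09%) were called lower (Npas2 among them), and without Con 3 the counts were 2 and 1. Dbp, an output factor of the clock, was at 16.5, 3.24 and 22.6 in the Con-FMT and 0.66, 0.58 and 0.68 in the Con livers. Con-FMT 2 was the lowest of its group but above each Con liver (log2 difference 2.88 ± 0.51, adjusted p = 0.00572, 0.0289 without Con 3, range 0.00149 to 0.0448). Nr1d1, the repressor REV-ERBalpha, was at 22.8, 12.7 and 35.2 against 1.22, 3.68 and 2.72 (log2 difference 2.75 ± 0.62, adjusted p = 0.0182), and its call was lost without Con-FMT 1, Con-FMT 3, Con 1 or Con 3 (adjusted p from 0.0595 to 0.0952). Nr1d2, its close relative, was at 9.87, 8.81 and 12.1 against 2.05, 3.03 and 2.49 (log2 difference 1.68 ± 0.22, adjusted p = 0.00137, 0.00929 without Con 3, range 0.00133 to 0.0201). Npas2, which activates these genes, was at 1.4, 1.83 and 0.67 against 2.9, 3.48 and 2.95 (log2 difference -0.87 ± 0.15, adjusted p = 0.00535, 0.0233 without Con 3, range 0.00278 to 0.0649). Arntl, the BMAL1 gene and the partner of Npas2, was at 8.02, 12.97 and 6.94 against 10.1, 12.9 and 12.2 and was not called (log2 difference -0.34 ± 0.22, adjusted p = 0.397), with Con-FMT 2 as high as the Con livers. The hour at which each liver was taken is not given in the sources used here, so its part in these values was not tested.

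Another comparison of the diets, with AOS in both groups, shared no liver with Con-FMT and Con. Both came from the same fit, with 1 estimate of the spread for each gene, so the calls in both were not independent. HFD+AOS against AOS gave 572 called genes (5.44%), 264 higher (2.51%) and 308 lower (2.93%). Of the 538 genes called in Con-FMT against Con, 123 were also called there, which is 22.9% of the 538 and 21.5% of the 572, and all 123 had the same direction, 89 higher and 34 lower. Without the third Con and AOS livers, 24 genes were called in both (31.6% of 76 and 14.9% of 161). Slc27a2 differed by 0.52 ± 0.11 (SE, adjusted p = 0.0113) in HFD+AOS against AOS. The values were 0.71 ± 0.09 (SE, adjusted p = 3.948e-04) for Npc1, 0.66 ± 0.10 (SE, adjusted p = 0.00165) for Bdh1 and 0.82 ± 0.13 (SE, adjusted p = 0.00149) for Cpt1a. Cyp26a1, at 1.06, 3.24 and 9.41 in the HFD+AOS livers and 20.6, 28.1 and 24.1 in the AOS livers, differed by -2.48 ± 0.46 (SE, adjusted p = 0.00535), and Cyp3a11 by -3.18 ± 0.53 (SE, adjusted p = 0.00258). The genes just named were called in both comparisons. Other genes described above were not called in HFD+AOS against AOS. Among them were Fgf21 (0.23 ± 0.25 (SE, adjusted p = 0.646)) and Retsat (0.04 ± 0.19 (SE, adjusted p = 0.938)). So were Cyp1a2 (-0.03 ± 0.10 (SE, adjusted p = 0.904)) and Pck1, in the opposite direction (-0.30 ± 0.23 (SE, adjusted p = 0.507)). Of the 538 genes, 473 had the same sign there. Among the acute phase genes, Saa2 differed by -0.66 ± 0.84 (SE, adjusted p = 0.705). It was at 110.2, 23.7 and 53.95 in the AOS livers and 49.4, 32 and 22.2 in the HFD+AOS livers. The lists differed in how many members this comparison called: 4 of 42 mitochondrial oxidation genes were called higher and 0 lower, of the PPARalpha targets 7 of 59 higher and 4 lower, and of the clock list 11 of 22 higher and 5 lower.

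**Figure D4:**
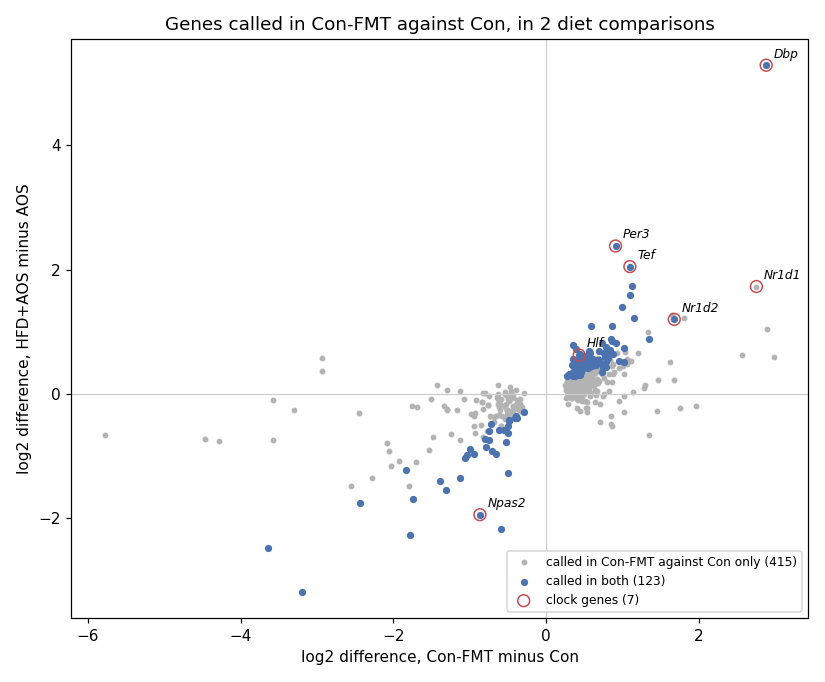
Log2 difference of HFD+AOS minus AOS (vertical) against that of Con-FMT minus Con (horizontal) for the 538 genes called in the latter, with 3 livers in each of the 4 groups. The 123 genes called in both comparisons lie in the lower left and upper right of the plot, and of the 7 clock genes that are circled, Dbp has the largest difference in both comparisons (2.88 in Con-FMT).

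The difference between the effects in these 2 comparisons was itself tested. Con-FMT against Con holds the transplant beside the diet, and HFD+AOS against AOS holds the diet under AOS. A difference between them therefore cannot be assigned to the diet, the transplant or AOS. In this test 10 genes passed (0.0952%), 7 with a value above 0 (0.0666%) and 3 below (0.0286%), with 1418 genes at an unadjusted p under 0.05. The count was 18 without Con-FMT 3 or without HFD+AOS 3, 40 without Con 2, and 0 without the third Con and AOS livers, where 892 genes had an unadjusted p under 0.05. Of the 22 genes of the clock list, 5 were among the 10 (Arntl, Ciart, Nfil3, Usp2 and Wee1). Arntl was at 11.2, 12.7 and 11.8 in the AOS livers and 1.18, 1.23 and 1.32 in the HFD+AOS livers, so that its difference there was -2.52 ± 0.22 (SE, adjusted p = 1.400e-05) and the difference between the effects was 2.18 ± 0.31 (SE, adjusted p = 0.00743). Ciart, a repressor of the clock, was at 0.96, 0.63 and 1.9 in the Con-FMT and 0.35, 0.36 and 0.45 in the Con livers, against 7.21, 9.82 and 10.7 in the HFD+AOS and 0.45, 0.07 and 0.35 in the AOS livers, and the effects differed by -2.38 ± 0.28 (SE, adjusted p = 0.00317). Chka, which makes phosphocholine, differed by -0.59 ± 0.14 in Con-FMT against Con, a call that was lost without Con-FMT 1, Con-FMT 3, Con 1, Con 2 or Con 3 (adjusted p from 0.0506 to 0.0894). In HFD+AOS against AOS it differed by -2.17 ± 0.14 (SE, adjusted p = 5.598e-07), and the effects differed by 1.58 ± 0.20 (SE, adjusted p = 0.00317).

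**Figure D5:**
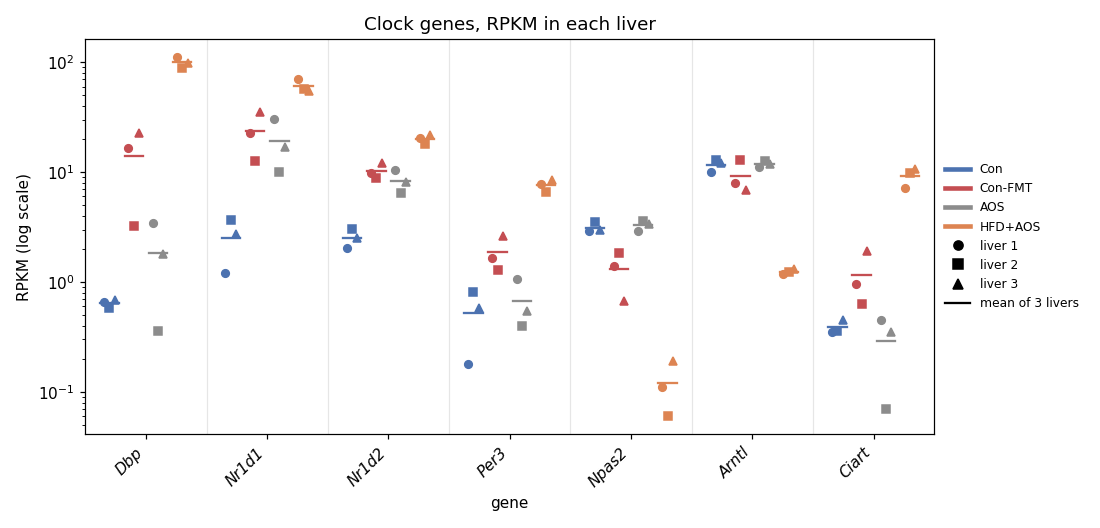
RPKM (log scale) of 7 clock genes in each of 3 Con, Con-FMT, AOS and HFD+AOS livers, with a symbol for each liver and a bar at the mean of 3. Dbp is at 0.66, 0.58 and 0.68 in the Con and 16.5, 3.24 and 22.6 in the Con-FMT livers, and Arntl is near 1 RPKM in the HFD+AOS livers only (1.18, 1.23 and 1.32).

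The high-fat diet without a transplant shares its Con livers with the comparison above, so its values are given beside it as such. HFD against Con gave 40 called genes (0.381%), 31 higher (0.295%) and 9 lower (0.0857%), and 1623 at an unadjusted p under 0.05. Without Con 3, 0 genes were called by limma and 1186 had an unadjusted p under 0.05, and without Con 1 these numbers were 0 and 1100. Of the mitochondrial oxidation genes, 3 of 42 were called higher (median 0.31), against 23 (median 0.41) in Con-FMT. Cpt1a was at 75.6, 51.96 and 56.9 in the HFD livers and differed from Con by 0.55 ± 0.13 (SE, adjusted p = 0.0748). Hadhb was at 99.6, 97.9 and 98.2 (0.56 ± 0.08 (SE, adjusted p = 0.0175)) and Fgf21 at 5.64, 2.46 and 5.15 (1.44 ± 0.25 (SE, adjusted p = 0.0283)). Cyp26a1 was at 17.9, 10.5 and 11.2 in the HFD livers, between the Con and the Con-FMT values in the mean, and differed from Con by -1.38 ± 0.46 (SE, adjusted p = 0.176). Saa2 was low in the HFD livers as well, at 29.1, 77.97 and 24.5 (-5.67 ± 0.84 (SE, adjusted p = 0.0175)).

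In the direct comparison of Con-FMT with HFD, 1 gene (0.00952%) passed the threshold and 697 had an unadjusted p under 0.05. The gene was Ablim3, an actin-binding protein, which was at 3.23, 3.31 and 3.52 in the Con-FMT livers, 6.66, 7.18 and 7.66 in the HFD livers and 4.71, 5.53 and 5.08 in the Con livers. It was lower in Con-FMT than in HFD by -0.91 ± 0.10 (SE, adjusted p = 0.0017) without overlap, and lower than in Con (log2 difference -0.49 ± 0.10, adjusted p = 0.0141), though the latter call was lost without Con-FMT 1 or Con 3 (adjusted p from 0.0519 to 0.0542). A larger number of calls against Con in Con-FMT than in HFD does not by itself show that those genes differ between Con-FMT and HFD. For Cpt1a the direct difference was 0.36 ± 0.13 (SE, adjusted p = 0.63), for Dbp 3.04 ± 0.51 (SE, adjusted p = 0.105), for Cyp26a1 -2.26 ± 0.46 (SE, adjusted p = 0.331), for Fgf21 0.23 ± 0.25 (SE, adjusted p = 0.903) and for Cyp4a14 -0.33 ± 0.77 (SE, adjusted p = 0.961), and none of these passed.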

How the data were processed

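RNA of 18 mouse livers, 3 in each of 6 groups taken from the labels, was sequenced. Per the paper's methods, the authors mapped reads with SOAPaligner, and the submitters' processing notes name Bowtie 0.12.2 and mm10. The authors deposited RPKM, with 2 decimals, on 19057 lines, each named by a gene symbol. The unit is named in the methods and not in the table. 3 symbols stood on more than 1 line, and among them Plin2 is not reported. Reads that map to several genes may raise values of near copies. 0 columns were left unmapped.

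Genes with RPKM of at least 1 in at least 3 of 18 livers were tested on log2(RPKM + 1), which understates changes of low genes, with limma 3.58.1 in R 4.3.3 (6 group means over all 18 livers, eBayes with trend, two-sided). Adjustment followed Benjamini and Hochberg over 10507 genes for each comparison. The authors' DEGseq needs read numbers and was not run. A gene was called at an adjusted p under 0.05. The fit was tested on simulated data. The 13 alternatives were equal library medians, a fit of only the groups compared, robust eBayes, a replicate block, a pseudocount of 0.1, no filter on low values, each of the 6 livers left out, and Con 3 and AOS 3 left out together.

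The genes described by name were the 10 with the largest differences in each direction among those called, the 3 of smallest p in each of 47 hand-written lists, up to 10 called also in HFD+AOS against AOS, up to 5 of the other tests, and a fixed set of lipid, bile acid, retinoid and clock genes. Genes outside this rule, named to complete a count, were named after their values were seen. Some genes of the lists and of the rule are not reported here by name. The groups, genes and lists were chosen with earlier results of these data known. Promoters came from RefSeq (GRCm38.p6). Figures used matplotlib 3.10.9 in Python 3.11.15.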

Additional observations from a re-analysis of the deposited data

Results flagged for a closer look

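In 10 genes the difference of Con-FMT against Con was not the same as that of HFD+AOS against AOS, by the test of that difference in the same limma fit. The values are log2 differences of the effects, Con-FMT minus Con less HFD+AOS minus AOS, with the adjusted p over 10507 genes, and their part in any result above was not tested. Of the 10, 9 are given here. Arntl (2.18, adjusted p = 0.00743), Chka (1.58, 0.00317), Nfil3 (1.20, 0.0481), Arl4a (1.18, 0.00949), Tab2 (0.79, 0.0308) and A230050P20Rik (0.73, 0.0308) had a value above 0, and each of them was lower in HFD+AOS than in AOS. Usp2 (-2.43, 0.00571), Ciart (-2.38, 0.00317) and Wee1 (-1.75, 0.00571) had a value below 0, and each was higher in HFD+AOS than in AOS.

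For 9 of the 10 genes the change in Con-FMT against Con was not called, and the exception was Chka. Nfil3, a repressor that opposes Dbp, was at 20.8, 25.9 and 14.8 RPKM in the Con-FMT livers, 23.7, 21.2 and 23.1 in the Con livers, 8.85, 9.25 and 6.76 in the HFD+AOS livers and 20.2, 26.3 and 22.1 in the AOS livers. Usp2, a deubiquitinase that follows the clock, was at 0.85, 1.14 and 1.28 in the Con-FMT and 1.31, 2.01 and 1.66 in the Con livers. In the HFD+AOS livers it was at 5.96, 5.81 and 6.32, against 0.82, 0.42 and 0.77 in the AOS livers. Wee1, a kinase of the cell cycle that the clock controls, was at 1.52, 0.71 and 1.1 in the Con-FMT and 0.5, 1 and 1.25 in the Con livers. In the HFD+AOS livers it was at 4.78, 5.66 and 5.23, against 0.76, 0.68 and 0.58 in the AOS livers. In each of these 3 genes the HFD+AOS livers lay apart from the livers of the other groups named. All 10 lost the call without the third Con and AOS livers, where the adjusted p was 0.0573 to 0.355. With 3 livers a group, single livers far from the others were not searched for.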

How the results depend on the processing

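The count of 538 genes changed between Con-FMT and Con was 224 with only the groups compared in the fit, 76 without the third Con and AOS livers, and 141 to 698 when each liver was left out in turn. Adding an absolute log2 difference of at least 1 gave 78 genes (35 higher, 43 lower), and with an adjusted p of at most 0.001 as well, 3. With equal library medians it was 586, with a pseudocount of 0.1 in place of 1 535, without the low-value filter 427 and with robust eBayes 528. For HFD against Con the 40 genes became 26 without the filter, 2 with only the groups compared, 0 to 178 when each liver was left out and 0 without the third livers. For Con-FMT against HFD, 1 gene became 2 with the pseudocount of 0.1, without the filter and with only the groups compared, and 1 to 13 when each liver was left out. For HFD+AOS against AOS, 572 became 240 to 459 when each liver was left out and 161 without the third livers. The 10 genes of the difference of the effects became 66 with only the groups compared, 7 to 40 when each liver was left out and 0 without the third livers. Fewer livers entered the fits that left livers out or held only the groups compared, and for the other settings the cause was not tested.

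Replicate numbers are shared between the groups in the labels, but livers of the same number did not deviate together: the correlations of their deviations from the group means, Con-FMT with Con, were -0.0535, -0.02 and 0.0153, and no Con-FMT liver correlated best with the Con liver of its own number. With the replicate number as a block, the counts were 497 for Con-FMT against Con, 5 for HFD against Con, 2 for Con-FMT against HFD, 544 for HFD+AOS against AOS and 21 for the difference of the effects.

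None of the 538 genes called in Con-FMT against Con changed sign under the 13 alternatives. Among genes that were not called, Nr1h4 had -0.03 with equal medians. When each liver was left out in turn, Nr1h4 ran from -0.04 to 0.10, Plin5 from -0.22 to 0.07, Srebf2 from -0.10 to 0.02, Wee1 from -0.03 to 0.28 and Nfil3 from -0.35 to 0.03. RPKM values carry no read numbers, so what the depth limits cannot be stated here.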

Other observations

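Some further groups of genes held a few calls beside many members that were not called. Over all genes tested, 3.76% were called higher and 1.36% lower. Of 54 genes of complement and coagulation, 4 (7.41%) were called higher and 3 (5.56%) lower (median 0.02). These counts were 2 and 0 without Con 3 and 2 and 0 without Con 1. F13b, which carries clotting factor XIII, was at 114, 111 and 95.2 RPKM in the Con-FMT and 60, 81.2 and 70.4 in the Con livers, without overlap (log2 difference 0.59 ± 0.09, adjusted p = 0.00325, 0.0203 without Con 3, range 5.254e-04 to 0.0608). F5, clotting factor V, was at 91.7, 84.6 and 75.5 against 47.4, 64.4 and 55.02, also without overlap (log2 difference 0.59 ± 0.10, adjusted p = 0.00407, 0.0231 without Con 3, range 6.767e-04 to 0.0611). Both calls were lost with only the groups compared in the fit, where the adjusted p was the highest of each range. The lower members were Cpb2, C2 and C4a, none of which was called without Con 3 or without Con 1. Of 77 mitochondrial ribosomal proteins, 2 (2.6%) were called higher and 1 (1.3%) lower (median 0.02), and without Con 3 1 and 0. Among the higher ones was Mrpl3, at 13.4, 13.7 and 12.3 against 8.78, 9.55 and 8.75 (log2 difference 0.49 ± 0.08, adjusted p = 0.00273, 0.0204 without Con 3, range 0.00266 to 0.0373).

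Of 31 genes that answer to glucocorticoids or fasting, 4 (12.9%) were called higher (Fgf21, Klf15, Pck1 and Angptl4) and 3 (9.68%) lower (Lcn2, Mt1 and Mt2). Without Con 3 these counts were 1 and 0. Klf15, a factor of amino acid breakdown and glucose synthesis, was at 60.5, 56.4 and 68.99 in the Con-FMT and 27.2, 49.1 and 38.4 in the Con livers (log2 difference 0.72 ± 0.16, adjusted p = 0.0158), and its call was lost without Con-FMT 3, Con 1 or Con 3 (adjusted p from 0.0548 to 0.0698). Of 30 stellate cell and matrix genes 1 (3.33%) was called (Fn1, fibronectin), and 0 without Con 3. Of 21 endothelial markers 1 (4.76%) was called (Stab2, a scavenger receptor of liver sinusoids). Stab2 was at 7.44, 7.52 and 5.49 against 3.83, 3.94 and 4.34 (log2 difference 0.62 ± 0.13, adjusted p = 0.0132), and its call was kept without Con 3 but lost without Con-FMT 1, Con-FMT 2 or Con 1 (adjusted p from 0.0559 to 0.0652). The summed RPKM of the 25 endothelial markers in the table was 118.1 to 129.6 in the Con-FMT and 105.7 to 124.8 in the Con livers.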
